A study of Saccharomyces cerevisiae with 27 samples.

Results

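RNase H treatment of yeast DNA before capture of RNA-DNA hybrids was examined in the libraries labelled hst34, by comparing 2 treated with 2 untreated DRIP-seq libraries over every gene interval of the deposited table. DRIP-seq pulls hybrid-containing DNA down with the S9.6 antibody and sequences it. All 5298 intervals entered the comparison, with each library centred on its median, and these 4 libraries are 4 of the 8 DRIP-seq libraries and of 27 samples in the series. The hst34 strain carries an HST4 deletion and an HST3-FRB fusion in an anchor-away background, in which rapamycin draws the fused protein out of the nucleus. The WT libraries come from a strain labelled WT anchor away, with no fusion or deletion named, and serve for comparison. Both strains were grown in rich medium (YPD) at 30 °C to an OD of 0.8 and both received rapamycin for 3 h, so the drug is shared by all groups. Purified DNA, 50 µg per sample, was cut with HindIII, EcoRI, XbaI, SspI and BsrGI overnight, with or without 30 U of RNase H. Each of the groups (hst34, hst34 with RNase H, WT, WT with RNase H) has 2 libraries, numbered 1 and 2. The labels do not say whether the 2 libraries of a group stem from different cultures, and p-values therefore cover the library-to-library spread alone, which can be technical.

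An RNA-DNA hybrid, or R-loop when the displaced DNA strand stays unpaired, forms when a transcript pairs back to its template. RNase H cuts the RNA strand of such hybrids, so S9.6 signal that depends on a hybrid is lost when DNA is treated before the pull-down, and signal that stays is the background of the assay. Yeast hybrids are best known at highly transcribed genes, ribosomal DNA, Ty elements and tRNA genes. Hst3 and Hst4 are sirtuins, NAD-dependent enzymes that remove the acetyl group from lysine 56 of histone H3. In DNA pulled from a culture, fewer cells with a hybrid and fewer or shorter hybrids per cell cannot be told apart.

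The 4 libraries labelled hst34 held an inferred 1265755 and 1171635 reads in intervals without RNase H and 935412 and 1197354 with it, or a median of 135 to 181 reads per interval. The WT libraries held 1765999 to 2951246 reads, apart from untreated WT 2 with 83303106. The number 2 WT libraries stand apart. They correlate with each other at r = 0.991 (Pearson, log2 signal over 5298 intervals) but with their number 1 counterparts at 0.802 without and 0.747 with RNase H. The log2 signal per kb spread over intervals with an SD of 1.46 and 1.49 in them and of 0.638 to 0.815 in the other 6 libraries. The untreated libraries labelled hst34 correlate with each other at 0.925, and the treated ones at 0.893. Treated and untreated libraries of the same number correlate at 0.797 and 0.851. Across numbers, untreated 1 with treated 2 correlates at 0.776 and untreated 2 with treated 1 at 0.857. No input library and no spike-in for DRIP-seq were used here, so a loss shared by all intervals cannot be told apart from library scaling.

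The deleted gene did not agree in full with the strain label. The deposited HST4 interval (sacCer3, chrIV:842301-843469) covers the whole open reading frame with 36 bases before and 20 after it. Its signal, taken as the read count times 1 constant per library, was 15.3 and 53.1 in untreated hst34 1 and 2, 79.9 and 99.5 in the RNase H libraries, 102 and 72.4 in untreated WT and 53.4 and 58.7 in WT with RNase H. These signals correspond to 21, 69, 66 and 107 reads in the 4 libraries labelled hst34. Relative to the library's median signal per kb, HST4 stood at 0.160 in untreated hst34 1, and at 0.579, 0.662 and 0.959 in the other 3, within or above the 0.444 to 0.923 of the WT libraries. How much of HST4 was deleted is not given in the labels. Because 3 of 4 libraries go against a full deletion, all directions below belong to the libraries labelled hst34. HST3, whose product carries the FRB tag, had signals of 374 and 333 untreated and 615 and 843 with RNase H. In WT its signals were also higher with RNase H, at 291 and 17.9 untreated and 442 and 37.6 treated.

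No interval passed an adjusted p of 0.05 when the RNase H effect was tested with all 8 libraries sharing 1 estimate of the spread (limma, Benjamini-Hochberg adjustment; 0.00% of 5298 called). In that fit the smallest adjusted p was 0.528 and 290 intervals had an unadjusted p under 0.05, of which 203 were lower and 87 higher with RNase H. The typical residual spread was 0.492 on the log2 scale in that fit and 0.267 in a fit of the 4 libraries labelled hst34 alone. In the 4-library fit 408 intervals were called, 7.70% of 5298. Of these, 265 (5.0%) fell and 143 (2.70%) rose relative to the library median, and each called interval had treated libraries that did not overlap the untreated ones. Without overlap alone, with no test, 1186 intervals were lower (22.4%) and 1725 higher (32.6%). With the replicate number as a block in the 8-library fit, 555 intervals were called lower (10.5%) and 676 higher (12.8%), 23.2% in all. Among them were 264 of the 265 falls and all 143 rises of the 4-library fit. Both fits use the same fold changes, and the residual spread with the block was smaller (0.2), so this overlap is no separate check. The 8-library fit without both WT libraries of number 2, an alternative chosen after seeing the data, leaves 1 library per WT group. Its residual spread (0.267, 2 residual degrees of freedom) then comes from the 4 libraries labelled hst34 alone. For the RNase H effect in hst34 it is therefore no separate check on the 4-library fit.

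The number of calls depended on which libraries were in the fit. Without untreated hst34 1, which leaves 1 residual degree of freedom, none was called (smallest adjusted p 0.0514 by limma, 485 unadjusted), and without hst34 2 the calls were 66 lower and 24 higher. Without RNase H library 1 there were 340 lower and 362 higher calls, and without RNase H library 2 there were 267 lower and 83 higher. On the signals as deposited, not centred, the split turned to 218 lower and 843 higher, because the median log2 fold change of all intervals moved from 0.12 to 0.34. Below, "fell" and "rose" mean called in the 4-library fit, and every fold change is on the log2(signal + 12.5) scale, which understates the change of low intervals. Counts of gene lists with the replicate block stand beside 12.8% of all intervals called higher and 10.5% called lower.

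Relative to the library median, intervals with the most RNA lost the most DRIP signal. When intervals were split by their spike-in-scaled RNA signal per length in hst34, the median log2 fold change with RNase H was 0.24 in the lowest decile, 0.03 in the ninth and -0.36 in the highest, against 0.12 over all intervals. In the highest decile 88 of 530 intervals fell (16.6%) and 3 rose (0.566%), beside 5.0% and 2.70% over all intervals. The median centred signal of that decile was 0.21 and 0.29 in the untreated libraries and -0.28 and -0.08 in the treated ones, so the groups did not overlap. Without untreated hst34 1 the median log2 fold change of the decile was -0.40. On the signals as deposited, not centred, the decile's median was -0.13, beside 0.34 over all intervals. In that uncentred 4-library fit 75 of its 530 intervals were called lower and 14 higher. Of the library's whole signal, this decile took 12.1% in each untreated library and 7.84% and 8.98% in the treated ones. In WT the same intervals took 9.14% and 7.06% untreated and 8.92% and 6.92% treated. The exact two-sided permutation p for the share in hst34 is 0.33, the smallest that 2 against 2 libraries allow.

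**Figure D1:**
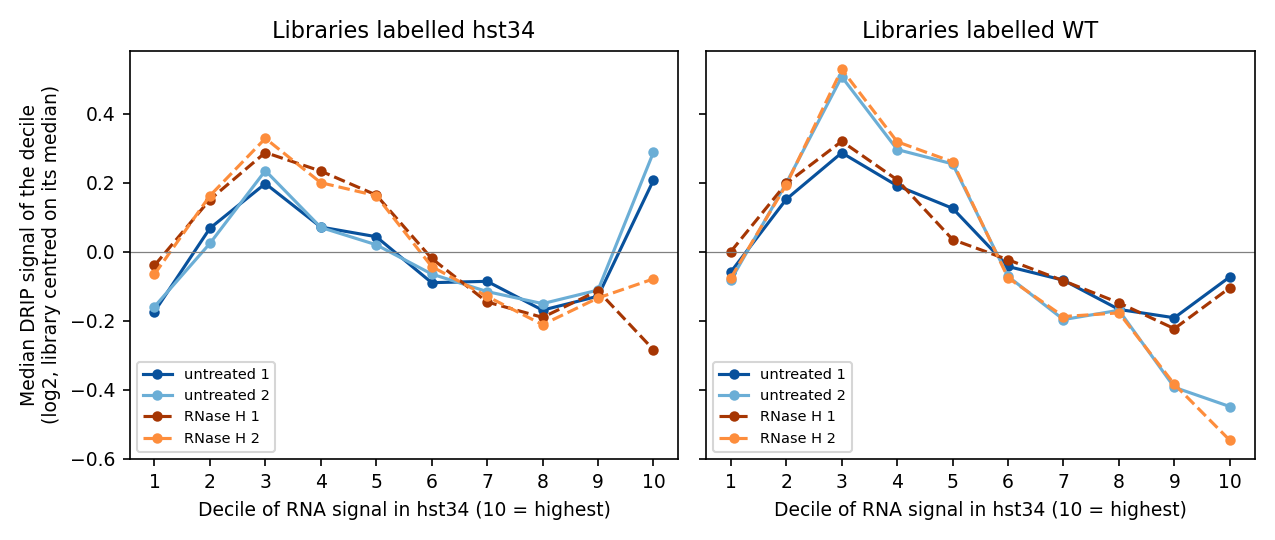
Median DRIP signal (log2, each library centred on its median) of intervals grouped by deciles of RNA signal in hst34, for the 4 libraries labelled hst34 (left) and the 4 WT libraries (right); solid lines are untreated, dashed lines RNase H. In hst34 the highest RNA decile lies at 0.21 and 0.29 untreated and at -0.28 and -0.08 after RNase H.

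Across all intervals, the rank correlation between DRIP signal per kb and RNA was weak in the untreated libraries labelled hst34, with rho of 0.155 and 0.154 over 5297 intervals, and lay at -0.003 and 0.052 after RNase H. It was 0.041 and -0.041 in untreated WT and 0.034 and -0.048 in treated WT. These values are descriptions over intervals that share libraries. Of the 265 falls, 177 were among the 4767 intervals of the other 9 RNA deciles, which is 3.71% of those intervals beside 5.0% over all.

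The level of DRIP signal in a library that the comparison did not use separated the calls further. By deciles of signal per kb in untreated WT 1, the median fold change with RNase H in hst34 ran from 0.45 in the lowest decile to -0.45 in the highest. In the highest decile 141 of 530 intervals fell (26.6%) and 3 rose, whereas in the lowest 3 deciles none fell and 22, 20 and 19 rose. The 2 highest deciles held 207 of the 265 falls (78.1%) and 13 of the 143 rises (9.09%). The log2 signal per kb itself spread over intervals with an SD of 0.814 and 0.815 in untreated hst34 and of 0.638 and 0.787 in treated hst34. The part of this narrower range in the gradient was not tested. The fold changes spread over intervals with an SD of 0.559 in hst34 and 0.203 in WT, and 225 intervals lay at or below -1 and 129 at or above 1 in hst34.

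**Figure D2:**
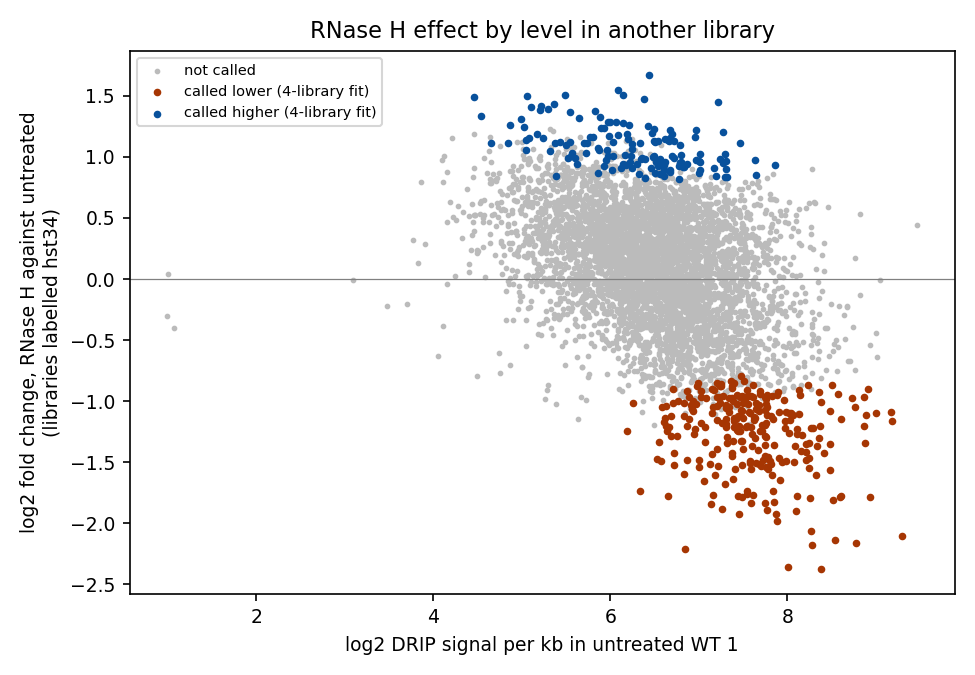
Log2 fold change with RNase H in the libraries labelled hst34 against log2 DRIP signal per kb in untreated WT 1, 1 point per interval, coloured by the call of the 4-library fit. The 265 falls sit mostly at the right, and 207 of them lie in the highest 2 deciles of WT 1 signal.

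**Figure D3:**
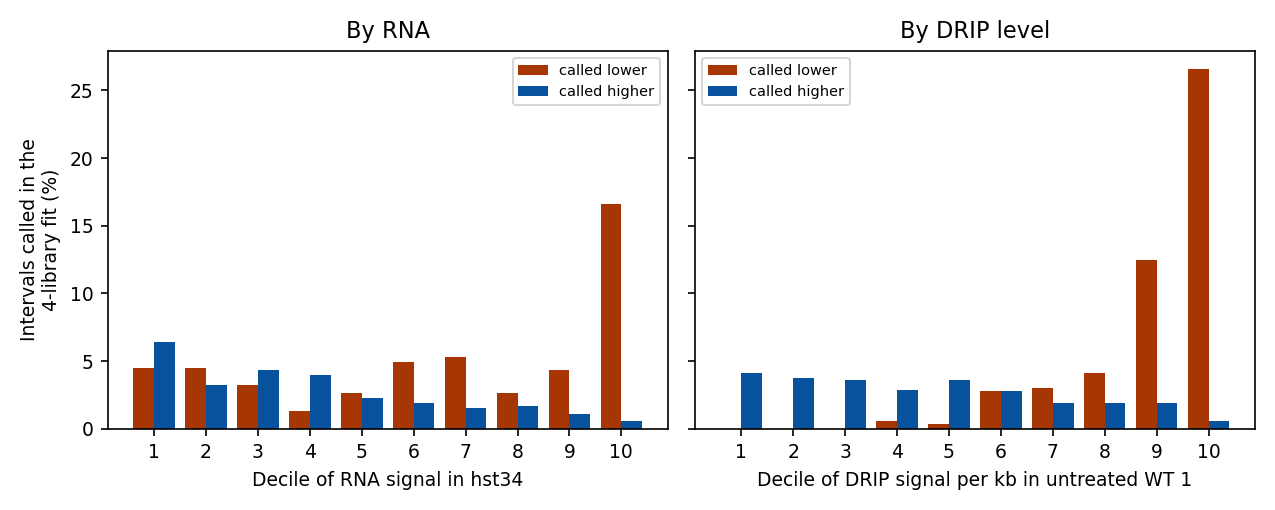
Percent of intervals called lower or higher in the 4-library fit, by decile of RNA signal in hst34 (left) and by decile of DRIP signal per kb in untreated WT 1 (right). Falls reach 16.6% in the highest RNA decile and 26.6% in the highest WT 1 decile.

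Genes of the translation apparatus made up the largest block of falls among the gene lists. Of 135 intervals of cytosolic ribosomal proteins, the structural proteins of the ribosome, 36 fell (26.7%, beside 5.0% over all intervals) and none rose, and 122 had a fold change below 0. Their median log2 fold change was -0.65, beside 0.12 over all intervals and 0.01 for the same genes in WT. The median centred signal of the list was 0.42 and 0.48 untreated and -0.38 and -0.11 treated. Of the large-subunit intervals 20 of 80 fell and of the small-subunit ones 16 of 55, with medians of -0.68 and -0.63, and the difference between subunits was not tested. With the replicate block 64 intervals of the list were called lower and 2 higher, and its median stayed between -0.70 and -0.42 under the other scalings. The ribosomal protein falls of the 4-library fit numbered 0 without untreated hst34 1, 9 without untreated hst34 2, 30 without RNase H library 1 and 50 without RNase H library 2. Without untreated hst34 1 the median of the list was -0.70, 122 of 135 lay below 0 and 47 were lower at an unadjusted p under 0.05 (limma). Within the highest RNA decile, 36 of 129 ribosomal protein intervals and 52 of the other 401 fell, with medians of -0.65 and -0.27.

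RPS12, which encodes a small-subunit protein, had the largest moderated t of the falls with at least 50 mean reads in the 8-library fit (chrXV:1028087-1028703). Its signal was 452 and 383 untreated and 146 and 115 with RNase H, a separation that was a condition for choosing it. In WT its signal was 225 and 165 untreated and 187 and 160 treated. Its log2 fold change was -1.81 ± 0.28 (SE, n = 2 per group), with an adjusted p of 3.44e-05 in the 4-library limma fit and 0.528 in the 8-library fit. RPS15 had signals of 222 and 239 untreated and 58.1 and 60.5 treated, a change of -1.98. RPS20 had 339 and 242 against 85.9 and 85.6, a change of -1.83. These 3 genes have no paralogous copy in yeast.

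Most other ribosomal protein genes have a near-identical copy, and how reads matching both were placed is not given, so their split between copies is uncertain. RPL41B, which encodes the shortest ribosomal protein, had signals of 470 and 334 untreated and 114 and 85.6 treated, a change of -2.10, the largest of the list. RPL6B went from 457 and 423 to 177 and 104, and RPL24A from 388 and 337 to 146 and 131, changes of -1.83 and -1.53. RPL12A, named for its high untreated signal per kb, had 713 and 607 untreated and kept 259 and 439 after treatment. All 4 had treated libraries below both untreated ones, as did 22.4% of all intervals. For RPL6B and RPL24A this was a condition of the choice, and RPL41B was chosen for its large change.

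Translation factors followed the ribosomal proteins. Of 27 intervals 7 fell (25.9%) and none rose, and their median was -0.60. The block called 10 lower and 1 higher. TEF1, one of a pair of genes for elongation factor eEF1A, had signals of 370 and 262 untreated and 58.1 and 81.8 treated, a change of -2.21 ± 0.31 (4-library fit). TIF2, a copy of the eIF4A helicase gene, went from 177 and 142 to 44.8 and 50.2. CDC33, which encodes the cap-binding factor eIF4E, went from 269 and 232 to 109 and 103, a change of -1.37 ± 0.30 with an adjusted p of 0.00274 (limma, 4 libraries). SUI1, for initiation factor eIF1, went from 91.3 and 49.3 to 37.5 and 10.2. Treated and untreated values did not overlap at any of these, which was a condition for choosing CDC33. TEF1, TIF2 and SUI1 were chosen for the largest changes of the list. Of all intervals, 22.4% were lower without overlap.

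Ribosome biogenesis genes, whose products assemble ribosomes in the nucleolus, had 16 of 65 intervals falling (24.6%) and none rising, with a median of -0.24, and 21 lower and 2 higher with the block. NOP56, a core protein of box C/D ribonucleoproteins, fell from 1031 and 567 to 269 and 140, a change of -2.14. MPP10 and NOP7, which act in small- and large-subunit assembly, fell by 1.49 and by 1.41 on the log2 scale. Uncentred, the median of the list was -0.01. Of 19 tRNA synthetase intervals, which charge tRNAs, none was called in the 4-library fit and 3 were lower with the block. Of the 19, 12 lay below 0, and their median of -0.19 turned to 0.04 uncentred.

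**Figure D4:**
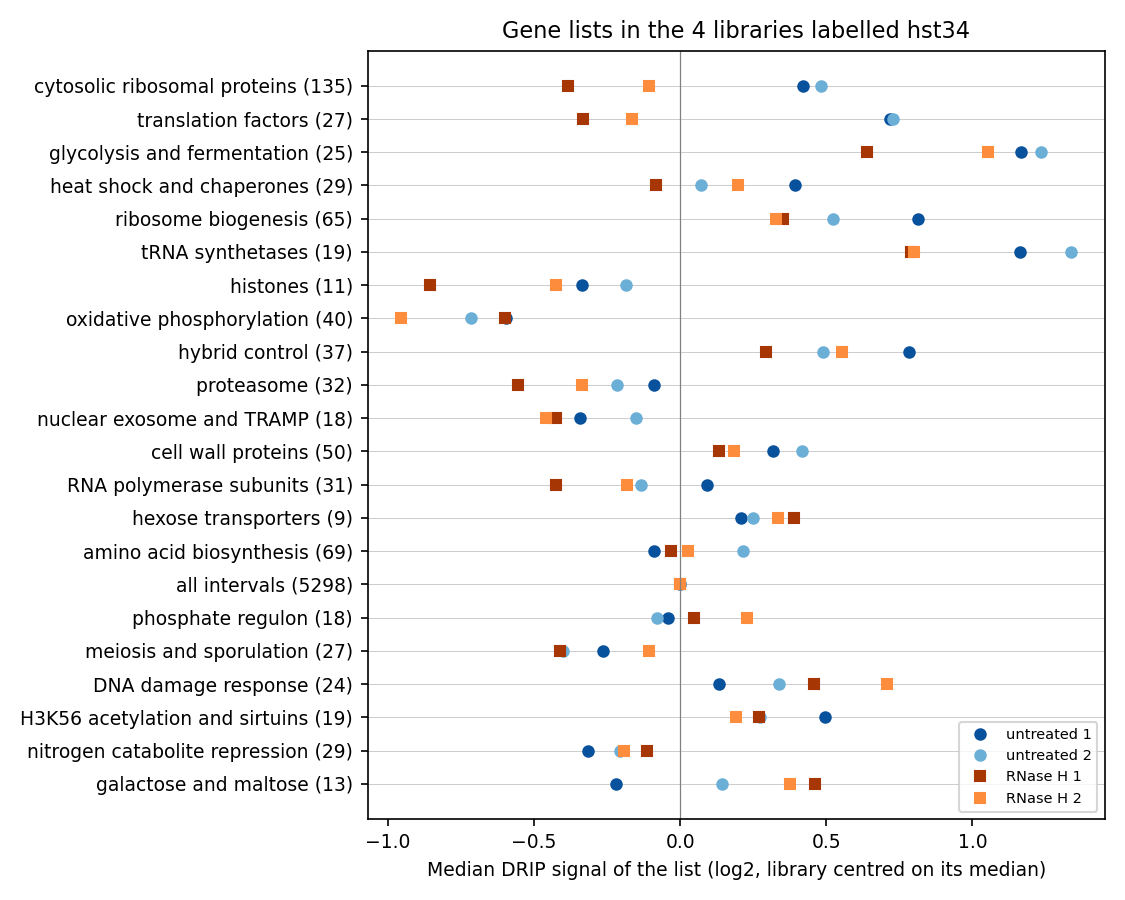
Median DRIP signal (log2, each library centred on its median) of each gene list with 5 or more measured intervals, in the 4 libraries labelled hst34; the number of intervals is in brackets. Ribosomal proteins lie at 0.42 and 0.48 untreated and -0.38 and -0.11 after RNase H, and galactose and maltose genes shift the other way.

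Glycolytic genes, which are among the most transcribed in glucose, had high DRIP signals and differed between the treated libraries. Of 25 glycolysis and fermentation intervals 5 fell (20%; 6 with the replicate block) and none rose, with a median of -0.43 that was -0.72 without RNase H library 2 and -0.14 without RNase H library 1. CDC19, the gene for pyruvate kinase, had signals of 1123 and 946 untreated and 380 and 484 treated, a change of -1.47. FBA1, for aldolase, went from 792 and 783 to 351 and 361, a change of -1.34.

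In other highly transcribed genes RNase H library 2 kept more signal than library 1. PDC1, for pyruvate decarboxylase, had 1130 and 1187 untreated but 416 and 841 treated. TDH3, for the main glyceraldehyde-3-phosphate dehydrogenase, had 1143 and 1080 untreated and 414 and 1068 treated, so library 2 lay just under the untreated values. CCW12, a cell wall mannoprotein gene, had 388 and 471 untreated and 195 and 348 treated. TDH3 and CCW12 were called in the 4-library limma fit with adjusted p-values of 0.0465 and 0.0411. With the replicate block their adjusted p-values by limma were 0.0496 and 0.0664, so CCW12 was not called there. ENO2, for enolase, had 1109 and 946 untreated and 586 and 860 treated; it was not called in the 4-library fit and was lower with the block (limma, adjusted p = 0.0085).

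URA3 and LEU2, genes of uracil and leucine synthesis that also serve as selection markers in yeast, had among the highest signals per kb and higher values after RNase H. URA3 had signals of 1461 and 1237 untreated and 1816 and 2536 with RNase H, and in WT 657 and 10.9 untreated and 1470 and 11.97 treated. LEU2 had 977 and 1076 untreated and 1353 and 2253 treated, and in WT 666 and 165 untreated and 1200 and 221 treated. Neither was called in the 4-library fit, and LEU2 was higher with the replicate block (limma, adjusted p = 0.0312). URA3, RPL41B, TDH3, RPL12A, CCW12, ENO2, LEU2 and RPS26A were the 8 intervals with the highest untreated signal per kb in hst34, from 1574 and 1333 per kb at URA3 to 618 and 745 per kb at RPS26A. They were chosen on the same untreated values that the treated ones are compared with, a choice that favours lower treated values.

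Some falls were in genes outside the highest RNA decile. TOF2, for a nucleolar protein that acts on ribosomal DNA, had RNA in the lowest decile and went from 935 and 604 to 292 and 178, a change of -1.89. NFU1, for a mitochondrial iron-sulfur protein, went from 358 and 246 to 131 and 101, and BET3, for a subunit of the TRAPP vesicle-tethering complex, from 353 and 318 to 106 and 146. In WT the values at NFU1 were 282 and 237 untreated and 447 and 282 treated.

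**Figure D5:**
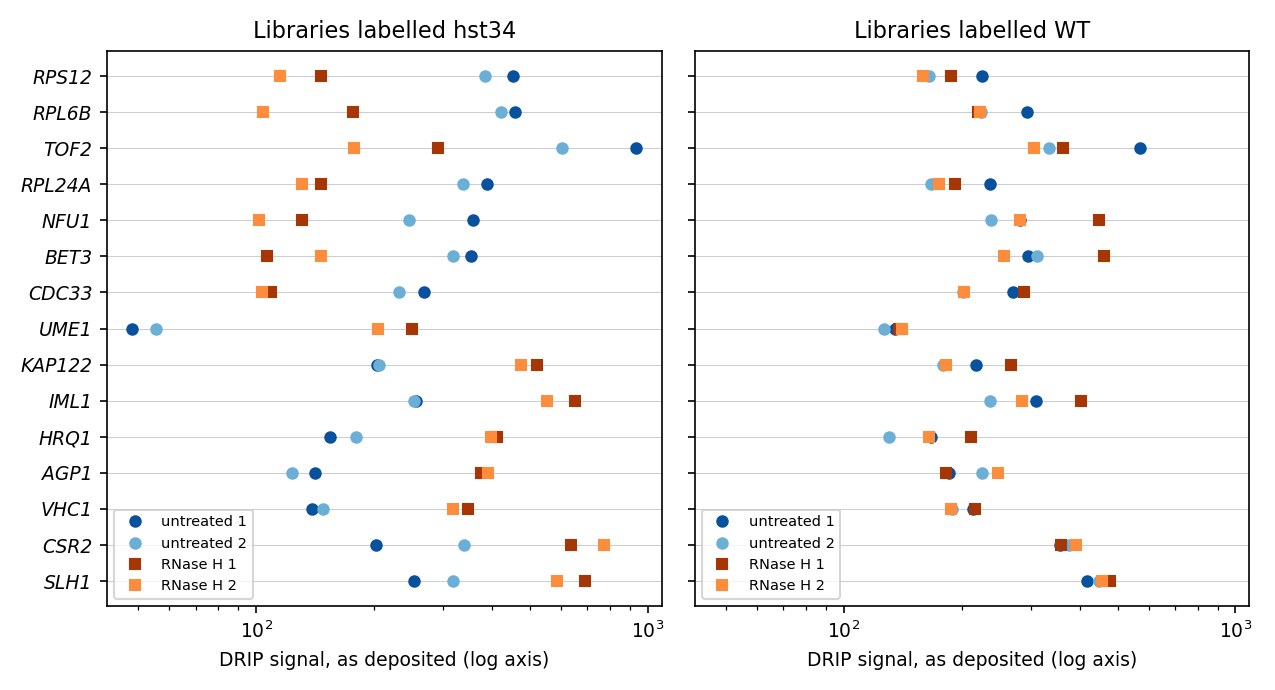
DRIP signal as deposited (log axis) at 7 falls and 8 rises among those with the largest moderated t of the 8-library fit, in the libraries labelled hst34 (left) and WT (right); circles are untreated, squares RNase H. Separation of treated and untreated libraries in hst34 was a condition for choosing these 15 intervals, which run from RPS12 (452 and 383 against 146 and 115) to SLH1 (253 and 317 against 692 and 587).

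In the centred 4-library fit, rises were fewer and smaller than falls and spread over genes of low RNA. Calls of higher signal outnumbered those of lower signal with the replicate block (676 against 555) and uncentred in the 4-library fit (843 against 218). The called rises numbered 34 of 530 in the lowest RNA decile and 3 in the highest. UME1, which encodes a subunit of the Rpd3 histone deacetylase complexes (chrXVI:289549-291109), had signals of 48.2 and 55.4 untreated and 249 and 205 treated, a change of 1.67 ± 0.32 with an adjusted p of 8.18e-04 (limma, 4 libraries). AGP1, an amino acid permease gene, went from 141 and 123 to 375 and 391, a change of 1.23. CSR2 went from 202 and 340 to 638 and 775. KAP122, for a nuclear importin, IML1, for a subunit of the SEACIT complex that restrains TORC1, HRQ1, for a RecQ-family helicase, VHC1, for a vacuolar cation-chloride cotransporter, and SLH1, for a helicase that acts on stalled ribosomes, rose by 0.91 to 1.01. None of these 8 passed with all 8 libraries in 1 estimate of the spread, where the adjusted p was 0.696 to 0.822.

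Galactose and maltose genes, which are repressed by glucose, lay above 0 in all 13 measured intervals, with a median of 0.56 beside 0.12 over all intervals, and 10 had treated libraries above both untreated ones, beside 32.6% of all intervals. None was called in the 4-library fit and 4 were called higher with the replicate block, beside 12.8% of all intervals. GAL3, the galactose sensor gene, had signals of 59.1 and 92.4 untreated and 186 and 191 treated (limma, 4 libraries, adjusted p = 0.0523). MAL11, a maltose transporter gene, had 59.1 and 37.7 against 129 and 124, and GAL1, for galactokinase, had 278 and 286 against 445 and 721. The 4 measured seripauperin and COS genes, subtelomeric families, had a median of 0.64 and no call in the 4-library fit, with 1 higher under the block.

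Genes that control hybrids were called in both directions. Of 37 intervals 3 rose (8.11%) and 2 fell (5.41%), with a median of -0.12, beside 2.70% and 5.0% of all intervals, so the share falling was near the background. With the replicate block 6 were higher and 6 lower, beside 12.8% and 10.5% of all intervals. MFT1, for a subunit of the THO complex that couples transcription to export, fell from 449 and 241 to 138 and 95.8. MLP2, for a protein of the nuclear pore basket, fell from 1421 and 1026 to 685 and 609. PGD1, listed under its alias HRS1 and encoding a Mediator subunit, rose from 52.6 and 26.95 to 146 and 114. RNH1, the gene for the yeast RNase H1, had 193 and 168 untreated and 159 and 106 treated, and RNH201, the catalytic subunit gene of RNase H2, had 43.8 and 38.5 against 98.0 and 46.5. Neither RNase H gene was called in the 4-library fit, and RNH1 was lower with the block (limma, adjusted p = 0.0431).

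Of the 19 intervals for histone H3 lysine 56 acetylation, nucleosome assembly and sirtuins, 1 fell (5.26%), near the 5.0% of all intervals. The median was 0.27, with 5 higher and 2 lower under the replicate block. The 1 fall was RLF2, the large subunit gene of chromatin assembly factor CAF-1, which went from 649 and 484 to 368 and 270. HST3 (0.78), HST4 (1.03) and HST2 (1.01) had positive log2 changes and were not called in the 4-library fit. All 3 were called higher with the block, at adjusted p-values by limma of 0.0166, 0.0216 and 0.0381. HST4, deleted per the strain label, had only 21 and 69 reads untreated and 66 and 107 treated. Among 11 histone intervals 1 fell (9.09%, beside 5.0% of all intervals). This was HHF1, for histone H4 and 1 of 2 copies, which went from 112 and 112 to 46.0 and 31.6. The median of the list was -0.18, and 0.04 uncentred, and 1 was lower with the block.

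Heat shock and chaperone genes had 7 of 29 falling (24.1%) and 1 rising (3.45%), with a median of -0.28, beside 5.0% and 2.70% of all intervals. The block called 9 lower and 2 higher. KAR2, for the Hsp70 of the endoplasmic reticulum, fell from 461 and 445 to 168 and 164, and AHA1, for an Hsp90 co-chaperone, rose from 90.5 and 136 to 263 and 345. The proteasome list had 4 of 32 falling (12.5%) and 1 rising, and 6 lower and 2 higher with the block. RPN13, PUP1 and RPT5, for a ubiquitin receptor, a core subunit and a base ATPase, fell by 1.92, by 1.53 and by 1.52 on the log2 scale. RPT5 went from 164 and 174 to 128 and 26.0, so its fall differed between the treated libraries.

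Nitrogen catabolite repression genes had 4 of 29 falling (13.8%, beside 5.0% of all intervals), among them the arginine permease gene CAN1 (-1.29) and the vacuolar protease gene PRB1 (-1.22), and 1 rising, AGP1, while the median was 0.33. The block called 4 lower and 6 higher. In the phosphate regulon 1 of 18 fell, the phosphate transporter gene PHO84, from 711 and 481 to 160 and 233, with a median of 0.21, and 1 was lower and 2 higher with the block. Cell wall genes had 5 of 50 falling (10.0%) and none rising (median -0.02), with 7 lower and 1 higher under the block, led by DSE2, for a daughter-cell separation protein (-1.48), BGL2, for a glucanase (-1.24), and GAS1, for a glucanosyltransferase (-1.03). Oxidative phosphorylation had 2 of 40 falling, the complex III subunit gene QCR8 (-1.52) and the NADH dehydrogenase gene NDE1 (-1.12), with a median of -0.12, and 7 lower and 1 higher with the block. The shares falling in the phosphate (5.56%) and oxidative phosphorylation (5.0%) lists were near that of all intervals.

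Exosome genes had 1 fall and 1 rise of 18 (5.56% each, beside 5.0% and 2.70% of all intervals), and 1 lower and 2 higher with the replicate block. LRP1, for the Rrp6 partner Rrp47, fell from 245 and 209 to 70.2 and 54.9. DIS3, for the catalytic subunit, rose from 155 and 313 to 486 and 548. RRP6 itself had 103 and 126 untreated and 192 and 144 treated and was not called in the 4-library fit or with the block. Of 27 meiosis and sporulation intervals SPO24 fell (-1.54) and IME4, for the mRNA methyltransferase, rose (1.16), 3.70% each. With the block 6 were higher and 2 lower. The histidine biosynthesis gene HIS6 (-1.12) was the 1 called of 69 amino acid biosynthesis intervals in the 4-library fit. With the block 9 of the 69 were higher and 8 lower, beside 12.8% and 10.5% of all intervals. None of 24 DNA damage response (median 0.21), 31 RNA polymerase (-0.01) or 9 hexose transporter (0.03) intervals was called in the 4-library fit. With the block the DNA damage response had 3 higher and 1 lower, the RNA polymerase list 2 higher and 2 lower, and the hexose transporters none. No Y' helicase or mitochondrially encoded gene had an interval in the table used.

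Whether the RNase H effect differed between the strains was tested as an interaction. The effect is the log2 fold change with RNase H, with its sign. A lower effect in hst34 is therefore a more negative or less positive fold change there than in WT, not a weaker one. With all 8 libraries no interval was called (0.00%; limma, smallest adjusted p 1, 79 unadjusted). Without both WT libraries of number 2, where each WT group is 1 library assumed to vary like the others, 17 intervals (0.321%) had a lower effect in hst34 and none (0.00%) a higher one. With the replicate block over all 8 libraries 134 were lower (2.53%) and 24 higher (0.453%). Among the 17 were CCW12, TDH3, RPL41B, PDC1, NOP56, LRP1, DSE2, BET3 and CDC19. Of the 17, TDH3 and PDC1 were not called with the block (limma, adjusted p = 0.0673 and 0.0649). At CCW12 WT 1 had 87.4 untreated and 479 with RNase H, against 388 and 471 untreated and 195 and 348 treated in hst34, and the difference of effects was -3.07 ± 0.50 with an adjusted p of 0.00174. At TDH3 WT 1 had 280 untreated and 1005 treated.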

How the data were processed

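The deposited DRIP-seq table holds a signal per gene interval: every value is a whole multiple, within 0.01, of 1 constant per library, which was taken as the value of 1 read; that the values are scaled read counts is an inference from this, and they are not divided by interval length. Per the submitters' processing notes, Bowtie2 and bedtools were used, with build sacCer3; versions, filters and the handling of multiply matching reads were not stated in the labels or headers. Libraries had 13 PCR cycles and 75 bp paired reads, per the labels. The deposited RNA signal used for the deciles is, per its title, scaled by a fission yeast spike-in and by length; the mean of the 2 hst34 libraries was taken. The deposited Break-seq signal was used only for the positions of the 239 peaks.

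Signals were analysed as log2(signal + 12.5), the added constant being the value below which 5% of positive signals lie, with each library centred on its median. limma 3.58.1 (R 4.3.3) with a trend was fitted to all 8 DRIP libraries over 5298 intervals above 0 in at least 2 libraries, with Benjamini-Hochberg adjustment at 0.05, and as an alternative to the 4 libraries labelled hst34. The procedure was tested on simulated data. Read numbers (the inferred value of 1 read was 0.73 to 1.21 in the 4 libraries) served to describe depth, and PCR copies were not marked, so they give counting error only. Symbols came from RefSeq for 5287 of 5298 intervals; 1870 intervals overlap another, and strand was not used.

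The replicate numbers come from the titles. Deviations of treated and untreated libraries of the same number correlated at 0.123 in hst34 and 0.940 in WT, both above 0.1, so the blocked count stands beside each gene list's calls and the blocked adjusted p beside named intervals that it moves across the threshold; in hst34 this rests on 2 pairs.

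Named intervals were the 8 largest moderated t of the 8-library fit per direction with at least 50 mean reads and no overlap, the 3 largest changes per list, the 3 largest interaction t, the strain's own genes, and the 8 highest signals per kb; 1 of the falls so chosen is not reported here. The comparison, the gene lists and the rule were chosen with earlier results of these data known. Base composition and restriction sites were not analysed here.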

Additional observations from a re-analysis of the deposited data

Results flagged for a closer look

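The RNase H effect differed between the libraries labelled hst34 and WT at 17 intervals, all with a lower effect in hst34, when both WT libraries of number 2 were left out (limma interaction, adjusted p under 0.05). With the replicate block over all 8 libraries, 134 intervals had a lower and 24 a higher effect in hst34. A lower effect again means a more negative or less positive log2 fold change with RNase H in hst34 than in WT. TDH3 and PDC1, among the 17, were not called with the block (limma, adjusted p = 0.0673 and 0.0649). With all 8 libraries and no block the test called none, with 79 at an unadjusted p under 0.05. In the fit without WT number 2 each WT value is 1 library, and at CCW12, TDH3 and PDC1 the difference holds both a lower value after RNase H in hst34 and a higher one in WT 1 (PDC1 418 untreated and 1010 treated in WT 1). The part of the single WT pair in these differences was not tested.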

How the results depend on the processing

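With all 8 libraries in 1 fit, no interval was called for the RNase H effect or its interaction under the other scalings, pseudocounts and filters, or without any 1 library (0 throughout). The alternatives that called some were the 4 libraries labelled hst34 alone (408), the replicate block (1231, and 158 for the interaction) and leaving out both WT libraries of number 2 (399 and 17), the last chosen after seeing the data. Alternatives of the 4-library fit were also added after seeing the data: 1061 calls uncentred, 832 with the replicate block, 385 to 540 under the other scaling, pseudocounts and filters, and from 0 to 702 when 1 library was left out (0 without untreated hst34 1, 90 without untreated hst34 2, 702 without RNase H library 1). The cause was not tested. The share of signal in the top 5% of intervals rose by 0.191 percentage points with RNase H in hst34, and this turned to -0.981 without RNase H library 2 and 1.36 without RNase H library 1; the share in the highest RNA decile changed by -4.27 to -3.12 points whichever of the 4 libraries was left out. Of the list medians, 31 alternatives moved by more than the spread between libraries and 107 did not. Uncentred medians were shifted by the 0.34 of all intervals, which put the histone, tRNA synthetase, proteasome, exosome, cell wall, oxidative phosphorylation, hybrid control and RNA polymerase lists above 0. Of single intervals, 1825 alternatives left the call as it was and 751 called an interval that the 8-library fit did not, with no reversal. edgeR and DESeq2 on recovered reads were not run, because the deposited values did not pass the check for recovered counts. A median of 135 to 181 reads per interval and 2 libraries per group limit what single intervals can show.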

Other observations

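Position gave small differences. The 87 intervals within 20 kb of a chromosome end had a median log2 fold change with RNase H of 0.36 in the libraries labelled hst34, beside 0.12 over all intervals. In the 4-library fit 6 of them were called higher (6.90%) and 1 lower (1.15%), beside 2.70% and 5.0% of all intervals. Shorter intervals had lower values, from a median of -0.01 in the shortest of 5 length classes to 0.20 in the longest. The 542 intervals that overlap a Break-seq peak had a median of 0.19 with 15 higher and 27 lower calls (4.98% lower), and the other 4756 had 0.11 with 128 higher and 238 lower.

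Of the 265 falls 24 (9.06%) lay within 1 kb of another fall, and of the 143 rises 21 (14.7%) lay within 1 kb of another rise. The shares that scattered calls would give were not computed, so whether calls cluster was not tested. The rank correlation of fold changes between adjacent intervals was 0.258 where they overlap (943 pairs, which share reads) and 0.054 where the gap was up to 500 bp (3362 pairs). Intervals outside the highest RNA decile that overlap or touch one inside it had a median of 0.07, and those more than 4 kb away 0.18. By strand arrangement, 148 of 2786 intervals with a convergent neighbour at the 3' end fell (5.31%) and 117 of 2512 with a tandem one (4.66%).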
